A study of Mus musculus with 2 samples.

Results

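The 10 genes described here are the members of the insulin-like growth factor (IGF) axis and its imprinted neighbour: the ligands Igf1 and Igf2, the non-coding RNA H19, the receptors Igf1r and Igf2r, and the binding proteins Igfbp2, Igfbp3, Igfbp4, Igfbp5 and Igfbp7. They were chosen by name from the 22652 genes with at least 1 count in the 2 libraries, and all 10 had counts in both. Igf1 and Igf2 are secreted growth factors that signal through the receptor tyrosine kinase Igf1r. Igf2r binds Igf2 without signalling as a growth factor receptor and carries it to the lysosome for degradation, and the binding proteins hold the ligands outside the cell and set how much of them reaches the receptor. Igf2 and H19 lie side by side in an imprinted domain, in which Igf2 is transcribed from the paternal and H19 from the maternal chromosome, and both are known for strong fetal expression that falls after birth.

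Both libraries were made from lineage-depleted (Lin-) bone marrow cells of C57BL/6 mouse embryos at E18.5, by BD Rhapsody whole-transcriptome single-cell RNA sequencing, which tags each captured transcript with a unique molecular identifier (UMI). One library is wild type (WT). The other has the genotype Bmx-CreER Wls and is called Wls cKO here: tamoxifen activates a Cre recombinase under the promoter of Bmx, a gene of arterial endothelial cells (ECs), and Cre removes floxed Wls, whose protein is needed for the secretion of Wnt ligands. Per the study's methods, fetal femurs were dissected, crushed and digested with collagenase. Magnetic depletion of lineage-committed blood cells followed, and these steps were shared by both libraries. Cartilage, joint surface and tendon cells are thus among the classes below, beside marrow cells. The litter and any tamoxifen treatment of the WT embryos, and the number of embryos behind each library, are not given in the sources used here. With 1 library per condition no test between conditions is possible, cells of 1 library are not replicates, and the spread between embryos is unknown.

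The WT library held 22708005 UMIs in 5998 barcodes and the Wls cKO library 24704991 UMIs in 6825. After the filter of the study, 5736 WT and 6620 Wls cKO cells remained, with medians of 3128 and 3067 UMIs, and 48 of their barcodes occurred in both libraries. Joint clustering without the 10 genes gave 16 clusters. They were named from marker genes as stromal-like, osteoblast-like, joint surface-like, tendon-like, mural-like, 3 kinds of chondrocyte-like cells (led by Ucma, by Epyc, or hypertrophic with Ihh and Col10a1), 3 kinds of endothelial-like cells (arterial with Gja5 and Sox17, sinusoidal with Stab1 and Stab2, and a remaining cluster led by Cd36 and Gpihbp1), blood progenitor-like, myeloid-like and osteoclast-like, and 2 clusters, led by Hbegf and by Bpifb1, stayed unnamed. These names were rebuilt here and are not the study's own, and that alone can make values differ from the study's. Blood, stromal and endothelial cells of the labelled bone marrow were all present, beside much cartilage. The mature red cell gene Hba-a1 was close to 0, at 7.99 and 3.44 of every 1000000 UMIs over all cells. Other haemoglobin genes are not given here, so red cell content is not read from this gene alone. Wls itself had 10 UMIs in the 77 WT arterial endothelial-like cells and 3 in the 69 Wls cKO ones, a ratio of 0.262 with an interval of 0.0463 to 1.02. That count checks the genotype little, since it is small and the captured transcript ends may lie outside the deleted part.

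A level, written CPM, is the gene's share of all UMIs in a cell class scaled to 1000000, and levels are compared within a gene only. Intervals are 95% intervals, Poisson for a level, Clopper-Pearson for a share of cells and conditional binomial for a ratio, and they cover counting error only. In whole classes, fewer cells of a subtype and less RNA per cell cannot be told apart.

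On the mouse GRCm38 (mm10) assembly H19 spans chr7:142575529-142578143 and Igf2 chr7:142650766-142666816, both on the minus strand and 72622 bases apart. Each carries a microRNA gene: Mir675 (chr7:142577064-142577147) lies in an exon of H19 and Mir483 (chr7:142654924-142654996) in an intron of Igf2. Spliced H19 transcripts can thus hold Mir675, whereas spliced Igf2 transcripts lack the intron with Mir483, so Igf2 counts are not counts of its precursor. The RefSeq sequences of the mature arms are given with the seed, bases 2 to 8, in capitals.
mmu-miR-675-5p: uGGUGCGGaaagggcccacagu
mmu-miR-675-3p: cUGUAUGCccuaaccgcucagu
mmu-miR-483-5p: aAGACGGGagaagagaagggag
mmu-miR-483-3p: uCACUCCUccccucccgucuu
No 2 of these seeds are alike. The mature microRNAs were not measured by the assay, which captures polyadenylated RNA.

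RefSeq promoter windows, from 250 bases before to 50 after a transcript start, were at hand for 9 of the 10 genes, with 4 windows for Igf2. Igf2 is transcribed from several promoters, and a transcript count sums over them, so the levels below cannot be divided among these windows. Both strands were searched for TATAAA, the GC box GGGCGG and CCAAT, and no 2 of the matches shown overlap. The GC box was found in 2 of the 4 Igf2 windows, against 35.7% of all 32851 promoter windows. The 2 windows are shown 5′ to 3′ on the minus strand of GRCm38.p6, with GGGCGG (or its reverse complement CCGCCC) and CCAAT (or ATTGG) in capitals.
Igf2, chr7:142658755-142659054: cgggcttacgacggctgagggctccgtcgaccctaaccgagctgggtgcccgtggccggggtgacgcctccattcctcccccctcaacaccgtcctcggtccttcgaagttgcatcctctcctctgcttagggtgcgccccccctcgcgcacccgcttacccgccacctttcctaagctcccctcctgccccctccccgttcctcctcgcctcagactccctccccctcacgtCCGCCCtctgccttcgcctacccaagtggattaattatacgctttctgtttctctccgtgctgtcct
Igf2, chr7:142657447-142657746: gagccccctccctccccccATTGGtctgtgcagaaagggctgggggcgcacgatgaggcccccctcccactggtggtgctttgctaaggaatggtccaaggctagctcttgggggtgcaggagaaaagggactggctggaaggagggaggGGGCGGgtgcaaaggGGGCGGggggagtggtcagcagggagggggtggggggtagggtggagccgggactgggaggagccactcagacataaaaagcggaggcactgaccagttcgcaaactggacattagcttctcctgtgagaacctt
The first window held 1 GC box and the second 2 GC boxes and 1 CCAAT, a motif present in 37.4% of all windows. TATAAA, in 13.6% of all windows, was not among the letters of any of the 4 Igf2 windows.

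Igf2, the fetal growth factor, was expressed throughout the skeletal and arterial cells and was low in sinusoidal endothelial and blood cells. In WT the level was 21652 CPM in joint surface-like cells, 20809 in the Hbegf cluster, 19483 in the Bpifb1 cluster and 19240 in Ucma chondrocyte-like cells. It was 16939 CPM in stromal-like, 16682 in Epyc chondrocyte-like and 16186 in arterial endothelial-like cells. The counting intervals of the Bpifb1 and Ucma classes overlapped, and so did those of stromal-like with Epyc and of Epyc with arterial cells. Every other step down the WT order of 15 classes with at least 50 cells was larger than counting error. Lower levels followed in tendon-like (14497 CPM), hypertrophic chondrocyte-like (10596 CPM), endothelial-like (7817 CPM) and mural-like cells (5878 CPM). Osteoblast-like cells, the bone-forming lineage, had only 2496 CPM, so that stromal-like cells exceeded them 6.78-fold (6.57 to 7.01). In Wls cKO the same classes ran from 25433 CPM in the Hbegf cluster down to 2868 CPM in osteoblast-like cells. Stromal-like cells there exceeded osteoblast-like cells 6.88-fold (6.62 to 7.15).

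Igf2 separated the endothelial classes. Arterial endothelial-like cells had 16186 CPM in WT and 18176 CPM in Wls cKO, endothelial-like cells 7817 and 8964 CPM, and sinusoidal endothelial-like cells 608 and 850 CPM. Sinusoids are the wide venous vessels of the marrow, and their level was 26.6-fold (23.8 to 29.9) below that of arterial cells in WT and 21.4-fold (19.2 to 23.95) below it in Wls cKO. With 30 instead of 11 principal components, a setting under which the sinusoidal cluster grew, the difference was 10.7-fold in WT and 6.08-fold in Wls cKO. All arterial cells of both libraries had at least 1 Igf2 UMI, against 45.0% of WT and 60.9% of Wls cKO sinusoidal cells. When every cell was thinned to 1000 UMIs the sinusoidal shares were 26.8% and 36.3%.

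**Figure D1:**
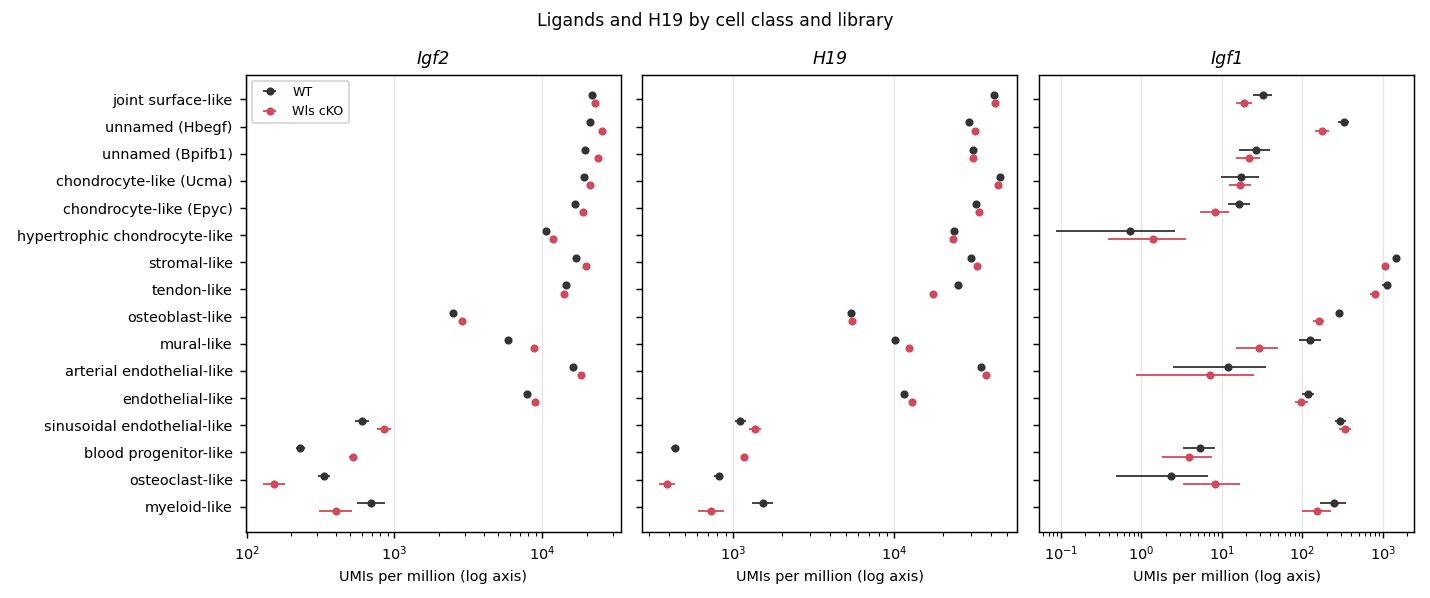
Levels of the ligands Igf2 and Igf1 and of H19 in each cell class (CPM, log axis) in the WT and Wls cKO libraries. Points are the level of 1 library with its 95% Poisson interval. Igf2 and H19 are high from cartilage to arterial cells and low in sinusoidal and blood cells, whereas Igf1 peaks in stromal-like cells at 1474 CPM in WT and 1070 CPM in Wls cKO.

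H19, a non-coding RNA that is spliced and polyadenylated like a messenger RNA, was high and low in the same groups of classes as Igf2, but the order among the high classes was another. Arterial cells ranked above the Epyc, stromal-like, Hbegf and Bpifb1 classes for H19 and below all 4 for Igf2 in WT, where the Igf2 intervals of arterial and Epyc cells overlapped. Its highest level was in Ucma chondrocyte-like cells, 45159 CPM in WT and 44108 CPM in Wls cKO. Joint surface-like cells followed with 41461 and 42188 CPM, and arterial endothelial-like cells with 34345 and 37243 CPM. Osteoblast-like cells had 5393 and 5505 CPM and sinusoidal endothelial-like cells 1107 and 1372 CPM. The arterial level was 31.0-fold (28.6 to 33.7) above the sinusoidal level in WT and 27.2-fold (24.9 to 29.7) in Wls cKO, and 14.0-fold and 8.80-fold with 30 principal components. Against the remaining endothelial-like cells the arterial level was 3.0-fold higher (2.92 to 3.09) in WT and 2.91-fold (2.83 to 2.98) in Wls cKO.

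The number of H19 UMIs per Igf2 UMI was not constant across classes. Over all cells it was 1.88 (1.87 to 1.89) in WT and 1.77 (1.76 to 1.77) in Wls cKO. In WT it was 2.35 in Ucma chondrocyte-like, 2.22 in hypertrophic chondrocyte-like, 2.16 in osteoblast-like and 2.12 in arterial endothelial-like cells. It was 1.46 in endothelial-like cells, 1.57 in the Bpifb1 cluster and 1.40 in the Hbegf cluster, and these counting intervals did not reach those of the cartilage, osteoblast-like and arterial classes. The 2 genes differ in length and in their captured ends, so only differences of this ratio between classes are read. In Wls cKO the ratio was lower than in WT in 10 of 10 classes that were not blood and held at least 100 cells in each library, although in endothelial-like cells (1.46 and 1.43) the counting intervals overlapped. In tendon-like cells it was 1.72 in WT and 1.24 in Wls cKO, and in mural-like cells 1.73 and 1.40.

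**Figure D2:**
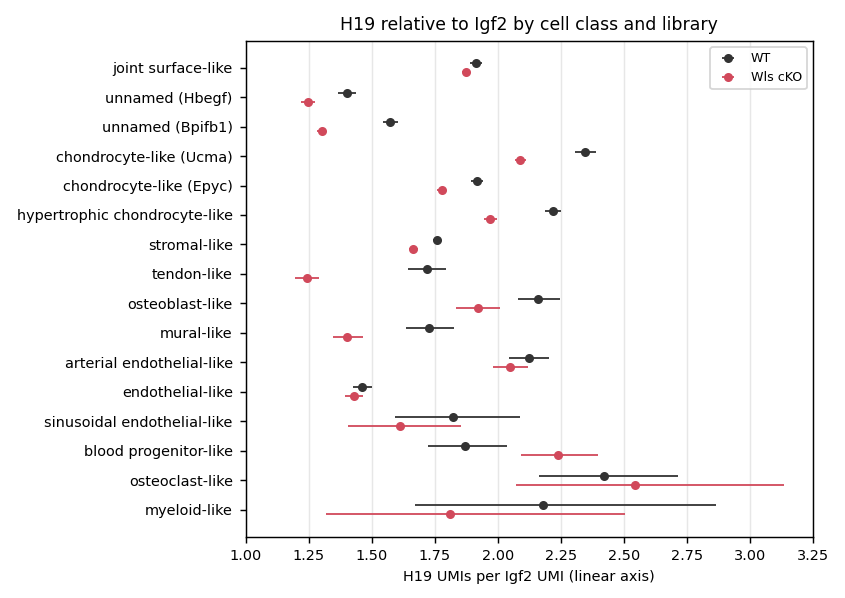
H19 UMIs per Igf2 UMI in each cell class of the WT and Wls cKO libraries, with 95% counting intervals. WT values run from 1.40 in the Hbegf cluster to 2.42 in osteoclast-like cells, which have few UMIs of either gene.

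Igf1, the second ligand, had a narrow pattern. Stromal-like cells, led by Clec3b, Mfap5 and Dpt, had 1474 CPM in WT and 1070 CPM in Wls cKO. They held 80.1% of all WT Igf1 UMIs with 19.5% of the cells, and 73.8% of the Wls cKO UMIs with 11.4% of the cells. For Igf2 the stromal-like shares were 26.6% and 13.9%. Tendon-like cells, with Scx and Tnmd, came next with 1118 and 787 CPM. Osteoblast-like cells had 287 and 161 CPM, and the Hbegf cluster 327 and 176 CPM. Chondrocytes were nearly without Igf1: stromal-like cells exceeded Epyc chondrocyte-like cells 89.3-fold (65.8 to 125) in WT, and hypertrophic chondrocyte-like cells had 2 and 4 UMIs in all.

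Among the vessels Igf1 ran the other way from Igf2. Sinusoidal endothelial-like cells had 296 CPM (253 to 346) in WT and 338 CPM (283 to 400) in Wls cKO, with an Igf1 UMI in 51.7% and 54.3% of cells. Arterial cells had 3 and 2 Igf1 UMIs, which is 12.1 and 7.02 CPM. The sinusoidal level was 24.6-fold (8.27 to 120.5) above the arterial one in WT and 48.1-fold (13.1 to 401.5) in Wls cKO, wide intervals that the few arterial UMIs set. The remaining endothelial-like cells lay between, at 117 and 96.9 CPM.

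Igf1r, the signalling receptor of both ligands, was low and even. WT levels in classes that were not blood ran from 37.7 CPM in endothelial-like to 89.0 CPM in hypertrophic chondrocyte-like cells. Hypertrophic cells exceeded stromal-like cells (45.4 CPM) by 1.96-fold (1.61 to 2.40) in WT and by 1.95-fold (1.56 to 2.46) in Wls cKO. Blood progenitor-like cells had 51.8 and 56.1 CPM, within the range of the other classes, where Igf2 was far below theirs. Most neighbours in the order of classes had overlapping intervals.

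Igf2r, the clearance receptor of Igf2 and itself an imprinted gene, was highest in mural-like cells, the smooth muscle and pericyte cells of the vessel wall. They had 987 CPM in WT and 889 CPM in Wls cKO, 2.04-fold (1.81 to 2.29) and 2.13-fold (1.88 to 2.39) above stromal-like cells at 484 and 418 CPM. Epyc chondrocyte-like cells had 679 and 675 CPM and Ucma cells 625 and 630 CPM. Arterial and sinusoidal endothelial-like cells, far apart in Igf2, had 161 and 156 CPM of Igf2r in WT. Blood progenitor-like cells had 27.6 and 28.7 CPM, and osteoclast-like cells, which share a blood origin, had 237 and 226 CPM, 8.58-fold (6.85 to 10.8) and 7.88-fold (5.93 to 10.6) more.

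**Figure D3:**
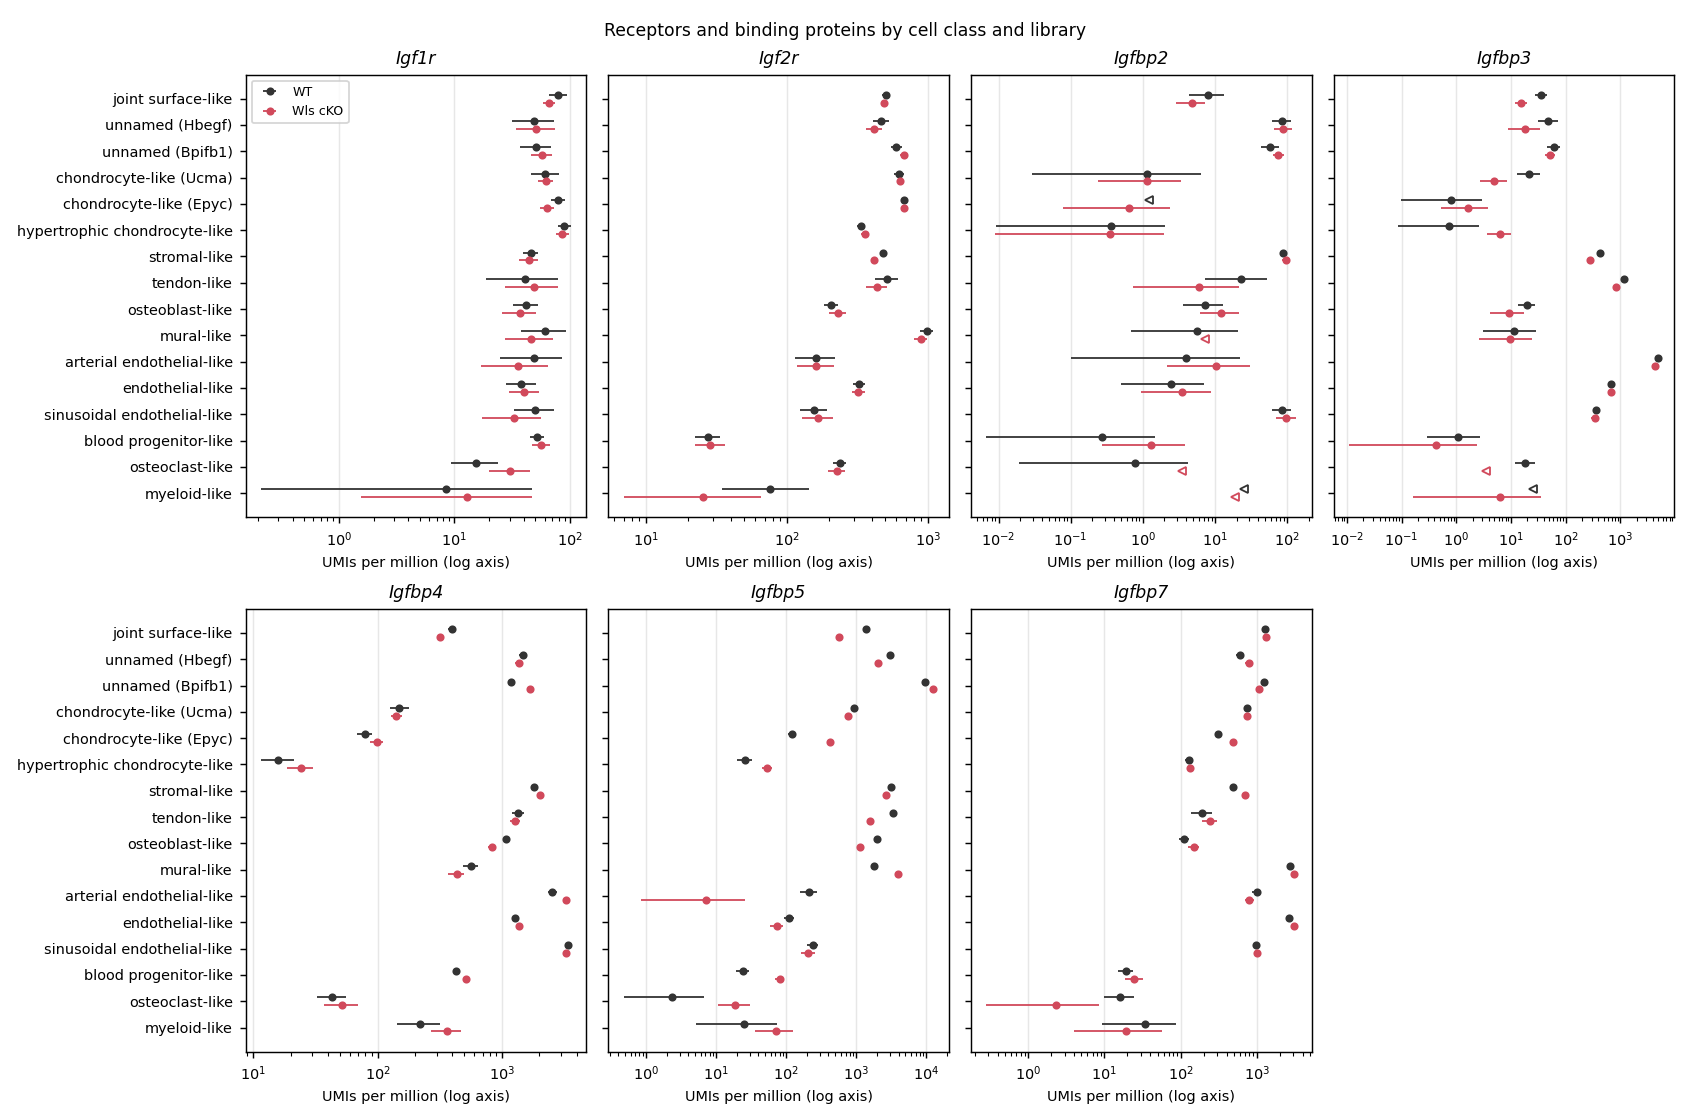
Levels of the receptors Igf1r and Igf2r and of the binding proteins in each cell class (CPM, log axis) in both libraries, with 95% Poisson intervals and open triangles for classes with 0 UMIs at the limit of 3 counts. Igf1r stays between 37.7 and 89.0 CPM in WT classes other than blood, while the binding proteins peak in different classes, such as Igfbp3 in arterial cells at 4827 CPM in WT.

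The binding proteins peaked in different cell classes of the femur. Igfbp3, the main carrier of circulating IGF, was highest in arterial endothelial-like cells, at 4827 CPM in WT and 4381 CPM in Wls cKO. This was 7.08-fold (6.47 to 7.74) above endothelial-like cells (682 CPM) and 13.1-fold (11.3 to 15.3) above sinusoidal cells (368 CPM) in WT. Outside vessels only tendon-like (1159 and 829 CPM) and stromal-like cells (418 and 276 CPM) were above 100 CPM.

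Igfbp4, an inhibitory binding protein, was high in sinusoidal and arterial endothelial-like cells alike. Sinusoidal endothelial-like cells had 3416 CPM in WT and 3260 CPM in Wls cKO, arterial cells 2548 and 3307 CPM, and endothelial-like cells 1269 and 1380 CPM. Sinusoidal cells exceeded arterial cells in WT but not in Wls cKO, where the intervals of the 2 levels overlapped. Stromal-like cells had 1801 and 2035 CPM and hypertrophic chondrocyte-like cells 15.9 and 24.1 CPM. In blood progenitor-like cells Igfbp4 had 425 and 518 CPM and a UMI in 72.7% and 71.7% of cells, while the other 4 binding proteins there were at 80.9 CPM or less.

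Igfbp5, which binds to the extracellular matrix, had its highest level in the Bpifb1 cluster, with 9534 CPM (9327 to 9745) in WT and 12439 CPM in Wls cKO. Tendon-like cells had 3286 and 1556 CPM, stromal-like cells 3116 and 2688 CPM, and osteoblast-like cells 1941 and 1138 CPM. Endothelial-like cells had 109 and 73.4 CPM. Igfbp2, a binding protein of fetal tissues, was scarce, with 512 WT and 515 Wls cKO UMIs in all. It was at 88.4 and 96.0 CPM in stromal-like, 85.3 and 89.0 CPM in the Hbegf cluster and 84.2 and 98.3 CPM in sinusoidal endothelial-like cells. In Epyc chondrocyte-like cells it had 0 UMIs in WT, which allows up to 3 counts, and 2 UMIs in Wls cKO.

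Igfbp7, a secreted protein with low affinity for IGF that is typical of vessels, was highest in mural-like and endothelial-like cells. The levels were 2700 CPM in WT and 3108 CPM in Wls cKO for mural-like and 2643 and 3033 CPM for endothelial-like cells. Arterial cells had 997 and 797 CPM, 2.65-fold (2.33 to 3.03) and 3.81-fold (3.33 to 4.37) below the endothelial-like class. Across the 3 endothelial classes Igf2, H19 and Igfbp3 were thus highest in arterial cells in both libraries, Igf1 in sinusoidal cells, and Igfbp7 in the remaining class.

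The same genes were then compared between the libraries within each class. A gene was counted as past 1.5-fold when its ratio of Wls cKO to WT lay beyond 1.5-fold in either direction, where the class held 100 or more UMIs of the gene in the libraries together. Over the 12 classes with at least 100 cells in each library, 17 of 88 comparisons of the 10 genes were past 1.5-fold (19.3%), 8 higher and 9 lower in Wls cKO, beside 3916 of 57961 comparisons of all genes (6.76%). With a minimum of 20 UMIs the counts were 28 of 107 (26.2%) beside 16.8% of all genes. These comparisons share libraries and cells and are given as counts only. Of the 17, 3 lay in blood progenitor-like and 2 in osteoclast-like cells, where levels of Igf2 and H19 are not read as expression by blood cells.

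The count differed by class. In stromal-like cells 1 of the 10 genes, Igfbp3, was past 1.5-fold, beside 7.58% of all genes there, and the median ratio of the 10 genes was 1.02, as was that of all genes. In joint surface-like cells 3 of 9, Igf1, Igfbp3 and Igfbp5, were past it, all lower in Wls cKO, beside 6.89% of all genes, and the median was 0.830 beside 0.973. In osteoblast-like cells 2 of 7, Igf1 and Igfbp5, were lower past it, beside 5.84%. In the Hbegf cluster 1 of 7, Igf1, was lower, beside 6.06%. None of 9 was past it in the Bpifb1 cluster, where 10.4% of all genes were.

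In cartilage and vessels the genes past the limit were higher in Wls cKO. In Epyc chondrocyte-like cells 2 of 7, Igfbp5 and Igfbp7, were past it, beside 6.8% of all genes. In hypertrophic chondrocyte-like cells 2 of 7, Igfbp4 and Igfbp5, were past it, beside 6.85%. Both were low there, Igfbp4 at 15.9 and 24.1 CPM and Igfbp5 at 25.7 and 53.1 CPM in WT and Wls cKO. Neither was checked against free RNA or doublets. In mural-like cells 1 of 6, Igfbp5, was past it, beside 10.8%. None of 7 was past it in Ucma chondrocyte-like cells, beside 6.02%, and none of 8 in endothelial-like cells, beside 4.9%. Of the blood classes, blood progenitor-like cells had 3 of 7 past it, Igf2, H19 and Igfbp5, all higher and beside 5.23% of all genes. Osteoclast-like cells had 2 of 4, Igf2 and H19, both lower and beside 6.4%. These blood values are part of the count over the 12 classes. Igfbp5 in blood progenitor-like cells was at only 23.9 and 80.9 CPM and was not checked against free RNA or doublets.

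**Figure D4:**
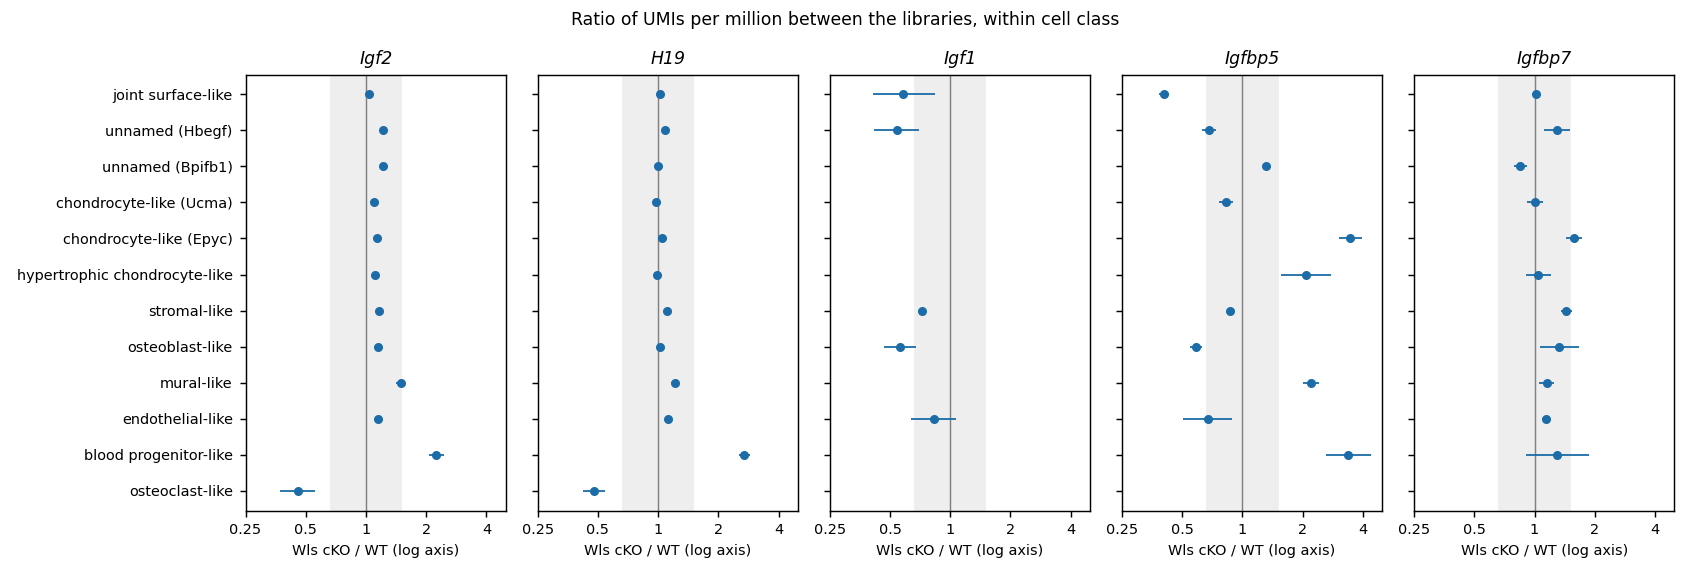
Ratio of Wls cKO to WT levels (log axis) of Igf2, H19, Igf1, Igfbp5 and Igfbp7 in classes with at least 100 cells per library and at least 100 UMIs of the gene, with 95% counting intervals. The grey band marks ratios within 1.5-fold, where the Igf2 points of all classes other than blood lie, while Igfbp5 runs from 0.407 in joint surface-like to 3.46 in Epyc chondrocyte-like cells.

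Igf2 was slightly higher in Wls cKO in 10 of 10 classes that were not blood and held at least 100 cells in each library. The median ratio was 1.15, and each of the 10 intervals, which cover counting error only, lay above 1. In joint surface-like cells the Igf2 ratio was above that of 62.7% of all genes with enough UMIs, the lowest such share. In mural-like cells it was above that of 93.8%, the highest share. In tendon-like cells, a smaller class, the Igf2 ratio was 0.970. The ratio was 1.04 (1.03 to 1.05) in joint surface-like, 1.16 (1.15 to 1.18) in stromal-like and 1.15 (1.11 to 1.18) in endothelial-like cells. Mural-like cells had the highest, 1.49 (1.41 to 1.58), from 5878 to 8769 CPM. In arterial endothelial-like cells, the cells in which the Cre is driven, it was 1.12 (1.08 to 1.17). Over all cells Igf2 was at 10820.1 CPM in WT and 15310.3 CPM in Wls cKO, a ratio of 1.41. At the WT mix of classes the Wls cKO level was 1.13-fold the WT level. Joint surface-like and Ucma chondrocyte-like cells, both rich in Igf2, were more numerous in Wls cKO (1542 against 765 and 971 against 381 cells).

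H19 was higher in 8 of the same 10 classes, with a median ratio of 1.03. The ratio was 1.21 in mural-like and 1.12 in endothelial-like cells, and the lowest was 0.977 in Ucma chondrocyte-like cells. In tendon-like cells, a class of 71 and 98 cells, H19 was at 24904 CPM in WT and 17459 CPM in Wls cKO, a ratio of 0.701 (0.676 to 0.728), beside an Igf2 ratio of 0.970 (0.927 to 1.02). Over all cells the H19 ratio was 1.33, and 1.04 at the WT mix of classes.

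Igf1 was lower in Wls cKO in each of the 5 classes that were not blood and had at least 100 cells in each library and enough UMIs. In stromal-like cells the ratio was 0.726 (0.694 to 0.760), and the share of cells with an Igf1 UMI was 78.1% in WT and 73.2% in Wls cKO. It was 0.561 (0.464 to 0.674) in osteoblast-like cells, 0.539 in the Hbegf cluster and 0.584 in joint surface-like cells. The interval in endothelial-like cells, with a ratio of 0.827, reached 1. In sinusoidal endothelial-like cells, with 151 and 92 cells, the ratio was 1.14 (0.899 to 1.44). Over all cells Igf1 was at 313 CPM in WT and 157 CPM in Wls cKO, a ratio of 0.501, and at the WT mix of classes the ratio was 0.719.

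Igfbp5 differed most, and in both directions. It was lower in joint surface-like cells, 1392 CPM in WT and 566 CPM in Wls cKO (ratio 0.407, 0.384 to 0.431), where 62.4% and 44.0% of cells had a UMI. It was higher in Epyc chondrocyte-like cells, 119 and 414 CPM (ratio 3.46, 3.05 to 3.94), where 14.4% and 35.5% of cells had one. Mural-like cells had 1771 and 3893 CPM, a ratio of 2.20 (2.0 to 2.42), with near equal shares of cells (51.8% and 55.4%). Arterial endothelial-like cells had 52 UMIs in WT and 2 in Wls cKO, but the 52 came from 7.79% of the 77 cells.

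Igfbp3 was lower in joint surface-like cells, with a ratio of 0.428 (0.298 to 0.614) from 36.2 and 15.5 CPM, and in stromal-like cells, with 0.660 (0.603 to 0.721), and stood at 0.995 in endothelial-like cells. Of the 10 classes that were not blood and held at least 100 cells in each library, Igfbp7 was higher in 9. Its ratio was 1.57 (1.44 to 1.72) in Epyc chondrocyte-like and 1.44 (1.35 to 1.54) in stromal-like cells. Igfbp4 ratios ran from 0.771 in mural-like to 1.52 in hypertrophic chondrocyte-like cells, the latter from 44 and 69 UMIs. Neither receptor was past 1.5-fold in any of the 12 classes with enough UMIs: Igf2r ranged from 0.864 to 1.13 and Igf1r from 0.797 to 1.11 in the classes that were not blood.

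In blood cells Igf2 and H19 were checked against free RNA, that is RNA released by broken cells and captured with intact ones. The levels of 8 matrix genes of stroma and cartilage (Col1a1, Col1a2, Col3a1, Col2a1, Col9a1, Dcn, Lum and Postn) were summed in the blood classes. The sum stood at 2.44% of its level in the other cells in WT and at 2.38% in Wls cKO. If all Igf2 in blood cells came with the same RNA, it would stand at the same percentage of its own level in the other cells.

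Igf2 in all blood cells was at 269 CPM in WT, 0.788-fold (0.744 to 0.834) of that prediction, and at 420 CPM in Wls cKO, 1.0-fold (0.942 to 1.06). H19 was at 0.865-fold (0.829 to 0.902) in WT and 1.27-fold (1.22 to 1.33) in Wls cKO. With each matrix gene alone the Igf2 value ran from 0.670 to 2.33 in WT and from 0.861 to 1.65 in Wls cKO. The few blood cells with most Igf2 UMIs, described next, also had many matrix gene UMIs. The prediction from summed matrix genes therefore cannot tell free RNA from doublets. No Igf2 or H19 expression by blood cells is read from these levels, and how much of them was free RNA was not tested further. Arterial endothelial-like cells, treated in the same way, were at 44.8-fold in WT and 25.3-fold in Wls cKO, and endothelial-like cells at 14.7-fold and 10.6-fold. Sinusoidal cells were at 2.16-fold (1.90 to 2.46) and 6.09-fold (5.14 to 7.22), between the blood and the endothelial-like values in both libraries.

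**Figure D5:**
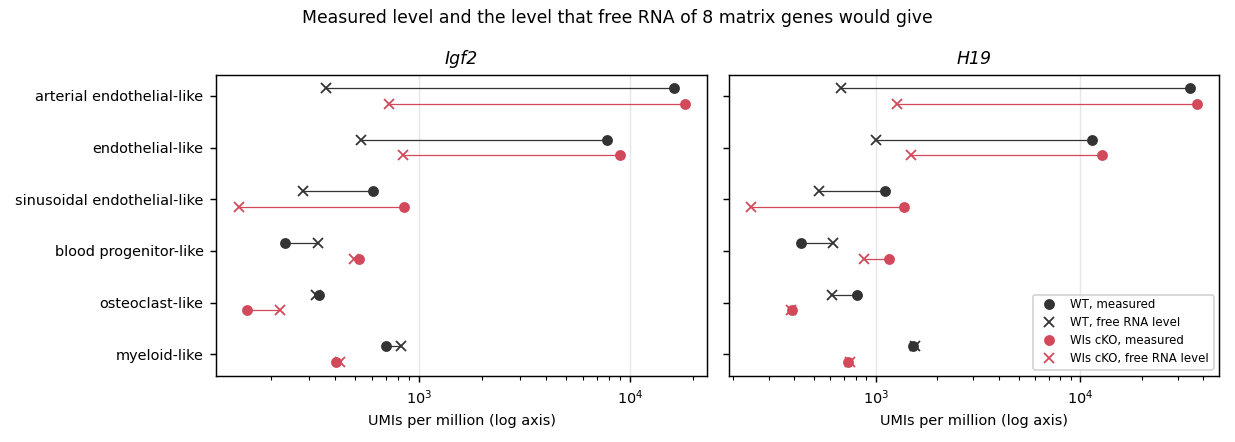
Measured level of Igf2 and H19 (circles) and the level that free RNA with 8 matrix genes would give (crosses) in the endothelial and blood classes of both libraries (CPM, log axis), joined by a line. Circle and cross lie close together in the blood classes, where the few cells with most Igf2 UMIs also had many matrix gene UMIs, so free RNA and doublets cannot be told apart. In arterial endothelial-like cells the measured Igf2 level is 44.8-fold the free RNA level in WT and 25.3-fold in Wls cKO.

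Most blood cells had no Igf2 at all, and a few had much. In WT 74.3% of 717 blood cells, and in Wls cKO 68.7% of 469, had 0 Igf2 UMIs. In WT 27 cells (3.77%) with at least 10 Igf2 UMIs held 82.5% of the Igf2 UMIs of blood cells, and in Wls cKO 25 cells (5.33%) held 87.7%. These cells had 199 and 208 matrix gene UMIs each on average, against 6.61 and 1.61 in the other blood cells. Of them, 21 of 27 and 14 of 25 were among the 5% of cells with the highest doublet scores of their library, and the part of doublets was not tested further. Without those top 5% of cells, Igf2 was at 101 CPM in WT and 206 CPM in Wls cKO.

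Igf2 also differed between the libraries in the blood classes. The few cells with at least 10 Igf2 UMIs are picked by Igf2 itself, so they cannot show where this difference lay. Blood progenitor-like cells had 231 CPM in WT and 520.5 CPM in Wls cKO, a ratio of 2.25 (2.06 to 2.46), and H19 433 and 1165 CPM, a ratio of 2.69. Without the cells of high doublet score, a choice not made on the Igf2 count, the Igf2 levels were 96.7 and 249 CPM. Over all blood cells, that choice left out a larger part of the cells with at least 10 Igf2 UMIs in WT than in Wls cKO. The doublet caller also did not separate doublets, so whether the remaining gap came from doublets was not tested. Osteoclast-like cells had 336 and 153 CPM, a ratio of 0.457 (0.373 to 0.557), and without those cells 109 and 85.6 CPM. Cells with at least 10 Igf2 UMIs numbered 18 and 20 in the blood progenitor-like and 7 and 3 in the osteoclast-like class. The remaining blood progenitor-like cells were at 51.5 and 56.1 CPM and the remaining osteoclast-like cells at 29.2 and 39.9 CPM, levels of cells picked for their low counts and given as a description.

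The study's own assignment of WT cells, joined by barcode, allowed a view of the BMSC, EC and HSPC subclusters, of which 14 had at least 47 listed cells, and the list of ECs used here is a part only. The listed clusters carry numbers, and the study's names were matched to them here through marker genes. Among BMSCs, eBMSC-1 had 18157 CPM of Igf2 and 1632 CPM of Igf1, and eBMSC-2, which matched the Hbegf cluster (141 of 149 cells), had 20619 and 374 CPM. Igf1 was thus 4.37-fold (3.75 to 5.11) and Igfbp3 10.01-fold (6.70 to 15.7) higher in eBMSC-1, where Igf2 was lower. Mitotic BMSCs had 13122 CPM of Igf2 and 1028 CPM of Igf1.

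The 2 groups of osteolineage cells differed widely. OLCs-1, with high Cxcl12 (3638 CPM), had 4756 CPM of Igf2, 11120 CPM of H19 and 595 CPM of Igf1. OLCs-2, the group with Bglap, the gene of osteocalcin, had 654 CPM of Igf2 and 460 CPM of H19 and 1 Igf1 UMI. Igf2 differed 7.27-fold (6.55 to 8.09) and H19 24.2-fold (21.5 to 27.3) between them, so that H19 UMIs per Igf2 UMI were 2.34 (2.25 to 2.43) in OLCs-1 and 0.703 (0.601 to 0.821) in OLCs-2. Igfbp4 (2013 against 157 CPM) and Igfbp5 (3782 against 181 CPM) were also higher in OLCs-1. Without cells of high doublet score OLCs-2 had 502 CPM of Igf2. No free RNA level was worked out for osteolineage cells. How much of the low OLCs-2 levels of Igf2 and H19 was free RNA was not tested, and the folds and the ratio of 0.703 rest on them.

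Listed arterial ECs had 15315 CPM of Igf2, the 3 groups of capillary ECs 6543, 5061 and 4120 CPM, and the 47 listed sinusoidal ECs 311 CPM. Arterial ECs exceeded sinusoidal ECs 49.2-fold (36.1 to 69.1) for Igf2 and 133-fold (92.0 to 200.5) for H19. The free RNA level in the WT sinusoidal endothelial-like class was 281 CPM for Igf2 and 528 CPM for H19, so the listed sinusoidal levels of 311 CPM (222 to 424) and 218 CPM (145 to 315) are not shown to exceed it and the folds rest on them. Sinusoidal ECs had 4425 CPM of Igfbp4 and 303 CPM of Igf1. Of the HSPC groups, multipotent HSPCs had 67.7 CPM of Igf2, neutrophil progenitors 168, megakaryocyte progenitors 412 and myeloid progenitors 674. Without cells of high doublet score the last 3 were at 30.6, 146 and 60.7 CPM, in the same order. The names of these HSPC groups are doubtful in this library: 129 of the 139 listed neutrophil progenitors fell into the osteoclast-like cluster, with 18556 CPM of the osteoclast protease Ctsk and no S100a8.

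Over 31 points, the classes of each library with at least 50 cells, the genes most like Igf2 among 8955 genes were H19 (Pearson r of 0.993), Plagl1 (0.934), Peg3 (0.922), Triqk (0.916) and Ndn (0.911). For H19 they were Igf2, Plagl1 (0.941), Peg3 (0.929), Triqk (0.914) and Igf2os (0.908). The points share 2 libraries and pairs of the same class, so these values are a description. They include blood classes, whose low Igf2 and H19 levels are not read as expression by blood cells. How far these blood points raise r was not tested. Of the other genes of the axis, Igf2r (0.735) and Igfbp7 (0.715) were nearest to Igf2, and Igf1 and Igfbp4 (both 0.143) farthest. Plagl1, Peg3 and Ndn, like Igf2 and H19, are known as imprinted genes. Igf2os is antisense to Igf2 and covers 7124 of its bases, and since no source states whether counting used strand, the 290 and 366 Igf2os UMIs are uncertain.

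A wider list of 23 genes of the pathway, with proteases and inhibitors of binding proteins, adaptors and RNA binding proteins, held 15 genes whose UMIs in the libraries together reached 100 and 8 that stayed below. In the 12 classes 9 of 69 comparisons of these genes were past 1.5-fold, 4 higher and 5 lower in Wls cKO, beside 6.76% of the comparisons of all genes. In stromal-like cells Igfbp6, a binding protein with preference for Igf2, was at 267 CPM in WT and 157 CPM in Wls cKO (ratio 0.590, 0.525 to 0.662). Pappa2, a protease that cleaves binding proteins, had a ratio of 0.474 (0.364 to 0.610) there and of 2.17 (1.68 to 2.81) in Epyc chondrocyte-like cells. Htra1, a protease of binding proteins, had 2.71 (2.30 to 3.20) in stromal-like cells. Stc1, an inhibitor of such proteases and a leading gene of the Bpifb1 cluster, had 1.80 in stromal-like, 0.497 in joint surface-like and 0.664 in endothelial-like cells. The remaining 2 were Irs1, an adaptor of the receptor, with 0.612 in hypertrophic chondrocyte-like cells, and Igf2bp2, an RNA binding protein, with 1.54 in mural-like cells.

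Other genes of this list stayed within 1.5-fold between libraries in the classes where they were highest. Grb10, an imprinted adaptor that dampens receptor signalling, was highest in Epyc chondrocyte-like cells in WT and in tendon-like cells in Wls cKO. It was at 1369 and 1158 CPM in Epyc and at 1254 and 1188 CPM in tendon-like cells. Its ratios ran from 0.668 to 1.06 in the classes that were not blood. Stc2, a protease inhibitor, and Grb14, an adaptor, were highest in hypertrophic chondrocyte-like cells, Stc2 at 101 and 92.0 CPM and Grb14 at 114 and 111 CPM. Igf2bp3, which binds Igf2 transcripts, was high in all blood classes. It was at 108 and 113 CPM in blood progenitor-like, 92.4 and 92.5 CPM in osteoclast-like and 92.6 and 103 CPM in myeloid-like cells. The insulin receptor Insr had 517 and 568 UMIs in all and no ratio past 1.5-fold among the 5 comparisons with enough UMIs.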

How the data were processed

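The files deposited by the authors hold raw UMI counts of each gene in each barcode, with no scaling. Per the labels and methods, reads were processed with UMI-tools 1.0.1, aligned to mm10 with STAR 2.7.1a and assigned to genes with featureCounts 1.6.4 (bcl2fastq 2.19.1.403 for conversion). The strand setting is not given in the sources used here.

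Following the study's filter, a barcode needed over 200 genes, below 5000 genes and below 30% mitochondrial UMIs, which removed 262 and 205. Counts were log-normalized to 10000 UMIs per cell, and 1998 variable genes, without cell cycle genes, the 10 genes described and the pathway genes, gave 11 principal components, 20 neighbours and Leiden clusters at resolution 0.5. Clusters were named where at least 50% and at least 3 markers of a list lay 2-fold above the other cells (80% of the list for a subtype), a rule set after seeing the data. The genes and lists were chosen with earlier results of these data known. Genes named are the 10, the pathway genes with at least 100 UMIs, the reference genes, Wls and the 5 genes most like Igf2 and H19.

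Scrublet called 45 WT (0.785%) and 5 Wls cKO cells (0.0755%), so the caller did not separate doublets, which were kept. The 5% highest scores (284 and 307 cells) were left out as an alternative. For shares of cells at equal depth, cells were thinned to 1000 UMIs, leaving out 119 and 161 shallower cells. Other alternatives were clustering with the 10 genes, with 30 components, at resolution 1.0 or per library, a stricter filter, totals without haemoglobin and mitochondrial genes, means over cells, median-of-ratios scaling and a minimum of 20 UMIs. Ratio intervals were checked on simulated Poisson counts, the same counting model that they assume. That checks the calculation only and does not bear on the spread between cells or embryos, doublets or free RNA. Clustering used scanpy 1.11.5 with igraph 0.11.9, intervals scipy 1.17.1 and plots matplotlib 3.10.9, under Python 3.11.15 (pandas 2.3.3, numpy 2.4.6). The study's cell assignments were used for WT only, and its values were not used.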

Additional observations from a re-analysis of the deposited data

Results flagged for a closer look

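Ratios of Wls cKO to WT were past 1.5-fold in opposite directions in different classes for 3 of the genes, with intervals clear of 1, and the difference between the classes was not tested in any of them, since each condition is 1 library. Igf2 was 2.25-fold in blood progenitor-like and 0.457-fold in osteoclast-like cells. H19 was 2.69-fold in blood progenitor-like and 0.479-fold in myeloid-like cells, the latter a class of 39 and 50 cells. Over all blood cells most Igf2 UMIs lay in a few cells with many matrix gene UMIs, and no such share is given here for H19 or for the myeloid-like class. Igfbp5 was 3.46-fold in Epyc chondrocyte-like and 0.407-fold in joint surface-like cells.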

How the results depend on the processing

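No paired analysis was possible because each condition has 1 library. Of the alternative values 69 stayed within the limits set for them, 58 moved beyond them and 2 turned direction. H19 in WT blood cells over the free RNA level, 0.865, turned to 1.19 without the top doublet scores and to 1.09 as the median over single matrix genes, and was 0.924 with thinned cells; in Wls cKO (1.27) these values were 1.37, 1.64 and 1.11, and 1.11 as a mean over cells. Igf2 there, 0.788 in WT, was 0.728 with the 10 genes kept in the clustering or at resolution 1.0, 0.985 without top doublet scores, 0.844 as a mean over cells, 0.875 thinned and 0.991 over single genes; in Wls cKO it was 1.08, 0.910, 0.940 and 1.29 under the last 4. The cause was not tested.

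The Igf2 ratio between libraries stayed above 1 in the stromal-like, chondrocyte-like and endothelial-like families under the alternatives run. In stromal-like cells (1.16) it was 1.18 at resolution 1.0, 1.15 with 30 components, 1.14 without top doublet scores, 1.10 with libraries clustered apart, 1.18 as a mean over cells and 1.14 with median-of-ratios scaling. In all chondrocyte-like cells together (1.20) it was 1.17 with the 10 genes in the clustering, 1.17 with 30 components, 1.15 without top doublet scores, 1.19 with the stricter filter, 1.27 with libraries apart, 1.18 as a mean and 1.19 thinned, and in all endothelial-like cells (1.25) 1.21 as a mean. These family ratios pool classes whose mix differed between libraries (Ucma cells 381 and 971): within the 3 chondrocyte-like classes Igf2 was 1.10, 1.13 and 1.11 and H19 0.977, 1.05 and 0.988. The H19 ratio in stromal-like cells (1.10) was 1.11 at resolution 1.0, 1.06 with 30 components, 1.06 without top doublet scores, 1.02 with libraries apart, 1.13 as a mean, 1.08 with median-of-ratios scaling and 1.12 thinned. In chondrocyte-like cells (1.11) it was 1.06 with the 10 genes, 1.06 with 30 components, 1.05 without top doublet scores, 1.10 with the stricter filter, 1.21 with libraries apart and 1.10 thinned, and in endothelial-like cells (1.23) 1.17 with the stricter filter and 1.19 as a mean.

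Arterial over sinusoidal cells, whose alternatives were chosen after seeing the data, gave for Igf2 in WT (26.6) 10.7 with 30 components and 31.3 without top doublet scores, in Wls cKO (21.4) 6.08 with 30 components, and for H19 in WT (31.0) 14.0 and 35.3 and in Wls cKO (27.2) 8.80. With the 10 genes kept, the stricter filter or libraries apart, arterial cells merged with other endothelial cells and gave no value. Without top doublet scores the listed Igf2 levels were 60.7 CPM in myeloid, 30.6 in neutrophil and 146 in megakaryocyte progenitors, 13610 in mitotic BMSCs, 502 in OLCs-2, 3778 in capillary-3 and 4017 in capillary-2 ECs. At a minimum of 20 UMIs, 28 comparisons of the 10 genes were past 1.5-fold instead of 17. With 1 library per condition, no alternative bears on the spread between embryos, and counts of the small classes limit the receptors and Igfbp2.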
